A study of Mus musculus with 3 samples.

Results

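The apex of the mouse heart was compared with the fast-twitch extensor digitorum longus of the shin (EDL) by long-read sequencing of transcripts. Genes were kept where the 2 libraries together held 20 or more consensus reads, which left 500 of the 2944 genes with a read in the pair and of the 3219 with a read in any library of the study. Exonic parts, the segments that remain when exons are divided at every annotated boundary, were kept where 30 or more consensus reads covered them in both libraries. Outside Ttn, Neb and Nrap this left 1600 parts in 54 genes, of 27271 parts in 686 genes. The cardiac library came from the apex alone and the EDL library from the whole muscle, and a library from whole soleus, a slow-twitch calf muscle, is given beside them. All animals were male C57BL/6 mice of 8 weeks, labelled as wild type, with no treatment named. The cDNA was size-selected at 5 to 10 kb and read end to end by PacBio Iso-Seq. Each muscle had 1 library, and the sources used here do not give the number of mice behind it. A full-length read comes from 1 sequenced molecule, and a consensus read merges full-length reads judged to be the same transcript. Without replicates, no p-value across genes is given. All intervals are exact, at 95%, and cover counting error only. Those of gene ratios and family shares take each consensus read as 1 molecule, and those of exon use and transcript ends take each full-length read as 1 unless consensus reads are named.

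Heart and fast skeletal muscle build their sarcomeres on a shared plan, with different members of the same gene families. The heart contracts with alpha myosin, releases calcium through the cardiac ryanodine receptor and couples its cells through desmosomes and gap junctions at the intercalated disc. Fast fibres use the fast myosin heavy chains, carry thin filaments lined by nebulin and release calcium through a skeletal receptor that is gated by the membrane voltage sensor. Alternative exons add a further layer in both tissues, above all in large scaffold and signalling proteins.

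Consensus reads in genes numbered 18302 over 2260 genes for the cardiac apex and 19826 over 2320 genes for EDL. Myh6 alone took 11.3% of the cardiac reads, and Ttn, the most read EDL gene, took 6.38% of the EDL reads. The labels were checked against contractile markers, in reads scaled to a common library size (RPM). Summed over 19 cardiac contractile genes, the level was 124030 RPM in the cardiac library and 7011 in EDL. Summed over 20 fast skeletal genes, it was 1530 RPM in the cardiac library and 58862 in EDL. Both sums rest largely on a few genes. Myh6 alone gave 112556 of the 124030 RPM, and Neb and Myh4 gave 22748 and 21790 of the 58862. The markers at 0 in their own tissue numbered 6 of 19 and 5 of 20, among them Myl2 and Mylpf, and every one of these had no annotated transcript as long as 5 kb. Most listed markers were that short, 13 of the 19 and 14 of the 20, and others of them did have reads in their own tissue. Markers of other cell types were measured beside them. The endothelial list summed to 4153 RPM in the cardiac library and 3077 in EDL, the matrix list to 9234 and 6607, the smooth muscle list to 1093 and 1513, the adipocyte list to 3278 and 3783, the blood list to 1257 and 958, and the nerve list to 273 and 151. Of the 12 members of these lists with 20 or more reads, none was called, where 8.4% of all 500 genes were. Of these, 3 leaned to the cardiac apex with intervals that excluded 1: Kdr, a receptor of endothelial cells, at a ratio of 2.29 (1.26 to 4.36), and the collagens Col4a1 at 1.97 (1.32 to 2.99) and Col4a2 at 1.87 (1.08 to 3.32). A ratio here is reads in the cardiac apex over EDL, scaled by library totals. The part of these cell types in the results was not tested. In whole tissue, fewer cells of a type cannot be told apart from less RNA per cell.

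A gene was called higher in 1 library when the interval of its ratio of scaled reads lay wholly beyond 2-fold. By this rule 16 genes (3.2%) were higher in the cardiac apex, 26 (5.2%) were higher in EDL, 42 (8.4%) in all, and 458 were called in neither direction. Of the cardiac genes, 8 had no read in EDL, and of the EDL genes 4 had no read in the cardiac apex. The 16 cardiac genes held 14.9% of all cardiac reads and 0.333% of EDL reads. The 26 EDL genes held 0.863% of cardiac reads and 11.1% of EDL reads. The centre of the distribution lay near equality: the median log2 ratio over all 500 was -0.02, with quartiles of -0.49 and 0.36, on a scale with 0.5 added to each count.

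**Figure D1:**
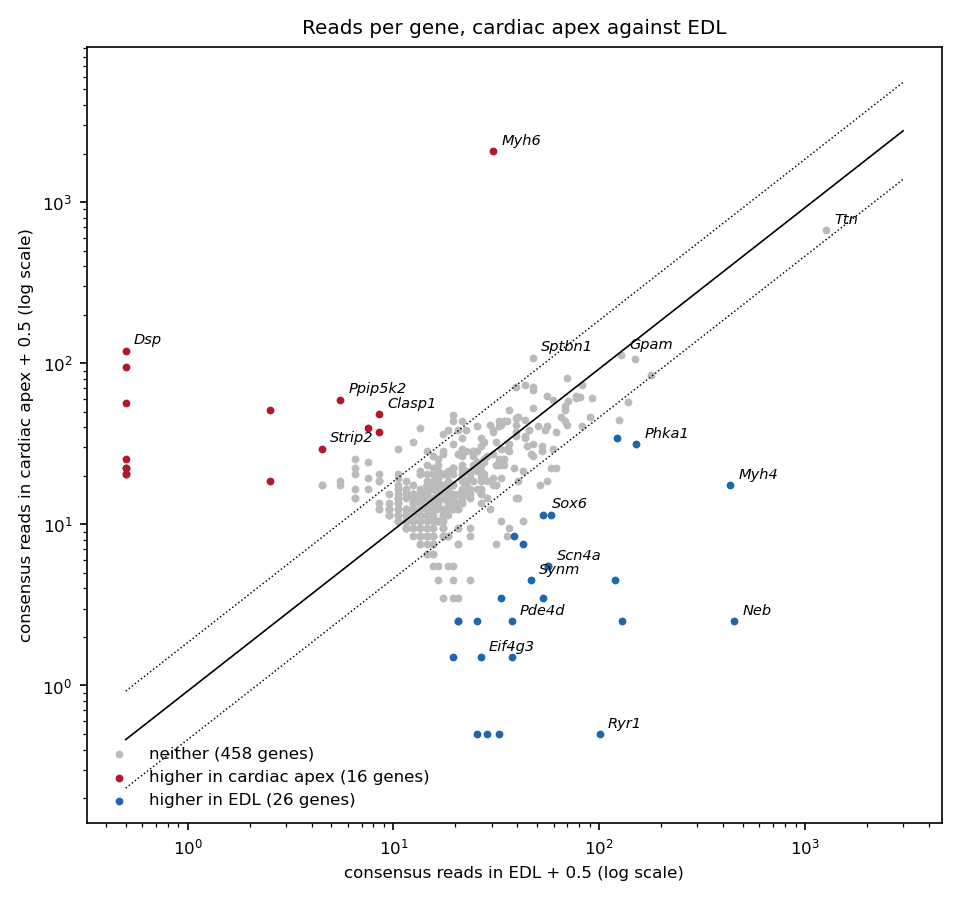
Consensus reads of the 500 genes in the cardiac apex (y axis) and in EDL (x axis), both with 0.5 added and on log scales. The solid line marks equal shares of the 2 libraries and the dotted lines a 2-fold difference. The 458 grey genes scatter around the line, while the 16 red and 26 blue genes lie well off it.

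Among the 16 cardiac genes, Myh6, Dsp, Ryr2, Nebl and Chrm2 had the 5 largest sizes, with 51 to 2060 cardiac reads against 0 to 30 in EDL. Several of the others act in calcium handling and second-messenger signalling. Ppip5k2, a kinase that makes inositol pyrophosphates, had 59 cardiac, 5 EDL and 8 soleus reads, a 12.8-fold ratio of the cardiac apex over EDL (interval 5.18 to 40.8). Adcy6, one of the main adenylyl cyclases of heart muscle, had 18 reads against 2 in each skeletal muscle, 9.75-fold higher (2.33 to 86.6). Slc8a1, the sodium-calcium exchanger that extrudes calcium after each beat, had 37, 8 and 3 reads, 5.01-fold higher (2.30 to 12.5).

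The other cardiac genes named here had varied roles. Strip2, a member of the STRIPAK phosphatase complexes, had 29 reads in the cardiac apex, 4 in EDL and 1 in soleus, 7.85-fold higher (2.76 to 30.7). Clasp1, which stabilizes growing microtubule ends, had 48, 8 and 18 reads, 6.5-fold higher (3.05 to 15.9). Gm10435, Pde1c, Dsg2 and Tbx20 had 22, 22, 20 and 20 cardiac reads and none in either skeletal muscle. Pde1c degrades cyclic nucleotides, Dsg2 is a desmosomal cadherin and Tbx20 is a cardiac transcription factor. Each of the 4 was at least 7.22-fold higher against a floor of 3 counts in EDL, and their exact intervals began between 5.35 and 5.93.

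On the EDL side Neb, with 2 cardiac and 451 EDL reads, had the largest ratio among genes with a read in both libraries. Genes of the skeletal sarcomere and of excitation made up 10 of the 26: Neb, Myh1, Myh2, Myh4, Tnnt3, Myl1, Ryr1, Cacna1s, Scn4a and Ano5, a membrane protein of muscle. These had 0 to 17 cardiac reads and 25 to 451 EDL reads. Others act in translation, signalling and filaments. Eif4g3, a scaffold of translation initiation, had 1 cardiac read, 26 EDL reads and 12 soleus reads, a 24-fold ratio toward EDL (3.94 to 984). Pde4d, a phosphodiesterase that degrades cyclic AMP, had 2, 37 and 29 reads, 17.1-fold higher (4.41 to 146). Mylk4, a kinase of the myosin light chain kinase family, had 2, 25 and 10 reads, 11.5-fold higher (2.88 to 101). Synm encodes synemin, an intermediate filament protein that links desmin to the membrane. Its reads were 4 in the cardiac apex but 46 and 49 in EDL and soleus, a 10.6-fold ratio of EDL over the cardiac apex (3.88 to 40.6). Of the genes with clone names, 5031439G07Rik had 1, 19 and 17 reads, 17.5-fold higher (2.79 to 729), and 3425401B19Rik had 7, 42 and 94 reads, 5.54-fold higher (2.47 to 14.6).

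Regulators of transcription and metabolism were also among the EDL genes. Stat5b, a transcription factor downstream of growth hormone, had 3, 33 and 15 reads in cardiac apex, EDL and soleus, 10.2-fold higher in EDL (3.19 to 51.7). Sox6, which represses slow-fibre genes in fast muscle, had 11, 53 and 21 reads, 4.45-fold higher (2.30 to 9.44). Mef2c, a muscle transcription factor, had 8, 38 and 65 reads, 4.38-fold higher (2.01 to 10.9). Phka1, the muscle alpha subunit of the phosphorylase kinase that starts glycogen breakdown, had 31, 151 and 46 reads, 4.50-fold higher (3.04 to 6.85). Setd7, a lysine methyltransferase, and Tmem56, a membrane protein, each had 2 cardiac and 20 EDL reads, 9.23-fold higher (2.24 to 81.5). Ccdc50, a ubiquitin-binding protein, had 11 and 58 reads, 4.87-fold higher (2.53 to 10.3). Xirp2, an actin-binding Xin-repeat protein, had 34 and 121 reads and the lowest called ratio in either direction, 3.29-fold (2.23 to 4.96). Mef2c and Xirp2 lay nearest the 2-fold bar, and Mef2c, Xirp2, Setd7 and Tmem56 were not called when Myh6 was left out of the library totals or with a 99% interval. Mef2c was also not called when the 10 most read genes of each library were left out, and Sox6, 5031439G07Rik, Adcy6 and Slc8a1 were not called with a 99% interval.

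**Figure D2:**
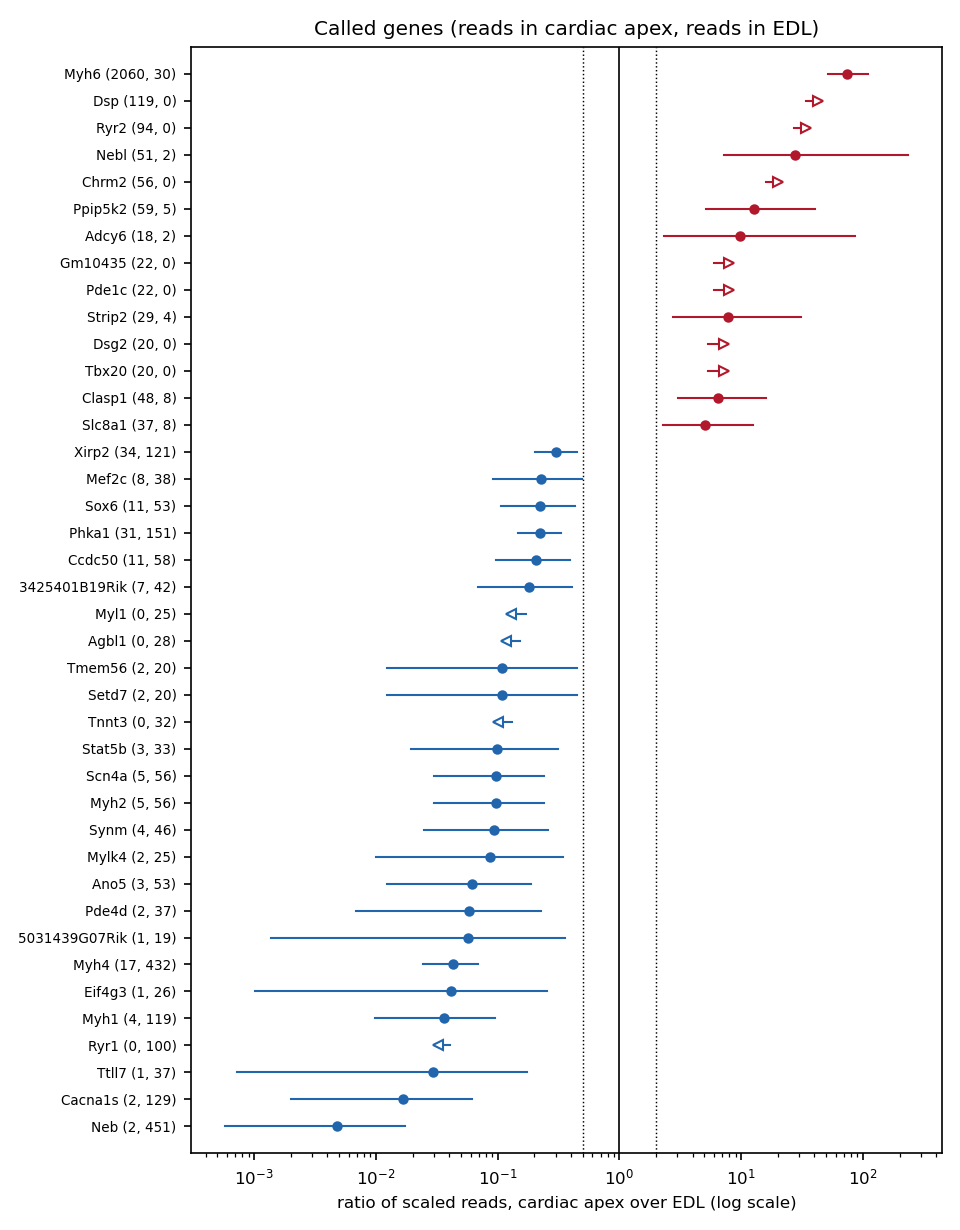
Ratio of scaled consensus reads in the cardiac apex over EDL for 40 of the 42 called genes, on a log axis, with reads in cardiac apex and EDL in parentheses. Points and lines are ratios with exact 95% intervals, and open triangles are ratios against a floor of 3 counts where a library had 0 reads, drawn from the finite end of the exact interval. Every interval lies outside the dotted 2-fold lines, Xirp2 and Mef2c closest to them.

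The members of several gene families exchanged places between the libraries. Sarcomeric myosin heavy chains, whose longest annotated transcripts span 6016 to 6230 nt, were 2127 reads in the cardiac apex, or 11.6% of the library, and 3.34% of the EDL library. Myh6 was 96.9% of the cardiac heavy chain reads (96.0 to 97.6), and Myh7, the slow and beta cardiac chain, was 1.79% of them (1.27 to 2.44). Myh4, the fast IIb chain, was 0.799% of the cardiac heavy chain reads (0.466 to 1.28), on 17 reads. In EDL, Myh4 was the most read chain, with an interval of 61.5% to 68.9%, and Myh1, the IIx chain, ranged from 15.1% to 21.1%. The chains are close in sequence, and a read was taken as the authors' alignment assigned it. Myh6 still had 30 EDL reads, 3.08% to 6.41% of the heavy chain reads there. Myh7 itself was not called: its 38 cardiac and 18 EDL reads gave a ratio of 2.29 (1.27 to 4.26), against 433 reads in soleus.

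Membrane and calcium channels showed the sharpest exchange. The ryanodine receptors, the calcium release channels of the sarcoplasmic reticulum, gave 94 Ryr2 and 0 Ryr1 reads in the cardiac apex and 0 Ryr2 and 100 Ryr1 reads in EDL. Among L-type calcium channels, Cacna1c, the cardiac pore subunit, was 13 of 15 cardiac reads, and Cacna1s, the skeletal voltage sensor, was 129 EDL reads beside 1 of Cacna1c. With 14 reads in the pair, Cacna1c was under the minimum for a call. Calcium pumps were too thinly covered for a ratio: Atp2a2 had 13 cardiac and 0 EDL reads and Atp2a1, the fast-fibre pump, 0 and 6. Scn4a, the skeletal sodium channel, had 5 cardiac, 56 EDL and 40 soleus reads, 10.3-fold higher in EDL (4.18 to 33.1).

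Sarcomere and cytoskeletal families varied in how far they divided. Troponin T, which ties the troponin complex to the thin filament, gave 7 cardiac reads, all of Tnnt2, and 32 EDL reads, all of Tnnt3. On these 7 reads the upper limit of Tnnt3 in the cardiac apex was 41.0%. The longest annotated transcripts of Tnnt2 and Tnnt3, 3330 and 1079 nt, lie below the selected cDNA range. Nebl, the short cardiac relative of nebulin, was 96.2% of cardiac reads of the pair of genes (87.0 to 99.5), and Neb held 451 of 453 in EDL. Clasp1 was 69.6% of the CLIP-associating reads in the cardiac apex (57.3 to 80.1) and 8 of 33 in EDL, while Clasp2 itself had 21 and 25 reads, a ratio of 0.91 (0.48 to 1.69). Xirp2 was 59.6% of the Xin-repeat reads in the cardiac apex (45.8 to 72.4) and 75.2% to 88.1% in EDL. Xirp1 had 23 and 26 reads, a ratio of 0.96. Mef2a, another MEF2 factor, had 30 and 52 reads, 76.9% of the cardiac MEF2 reads (60.7 to 88.9). Of the myomesins, the cross-linkers of the M band, Myom1 had 73 and 82 reads and Myom2 51 and 68, while Myom3 had 0 and 15. The families were put together with the results known, and the shares are a description.

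**Figure D3:**
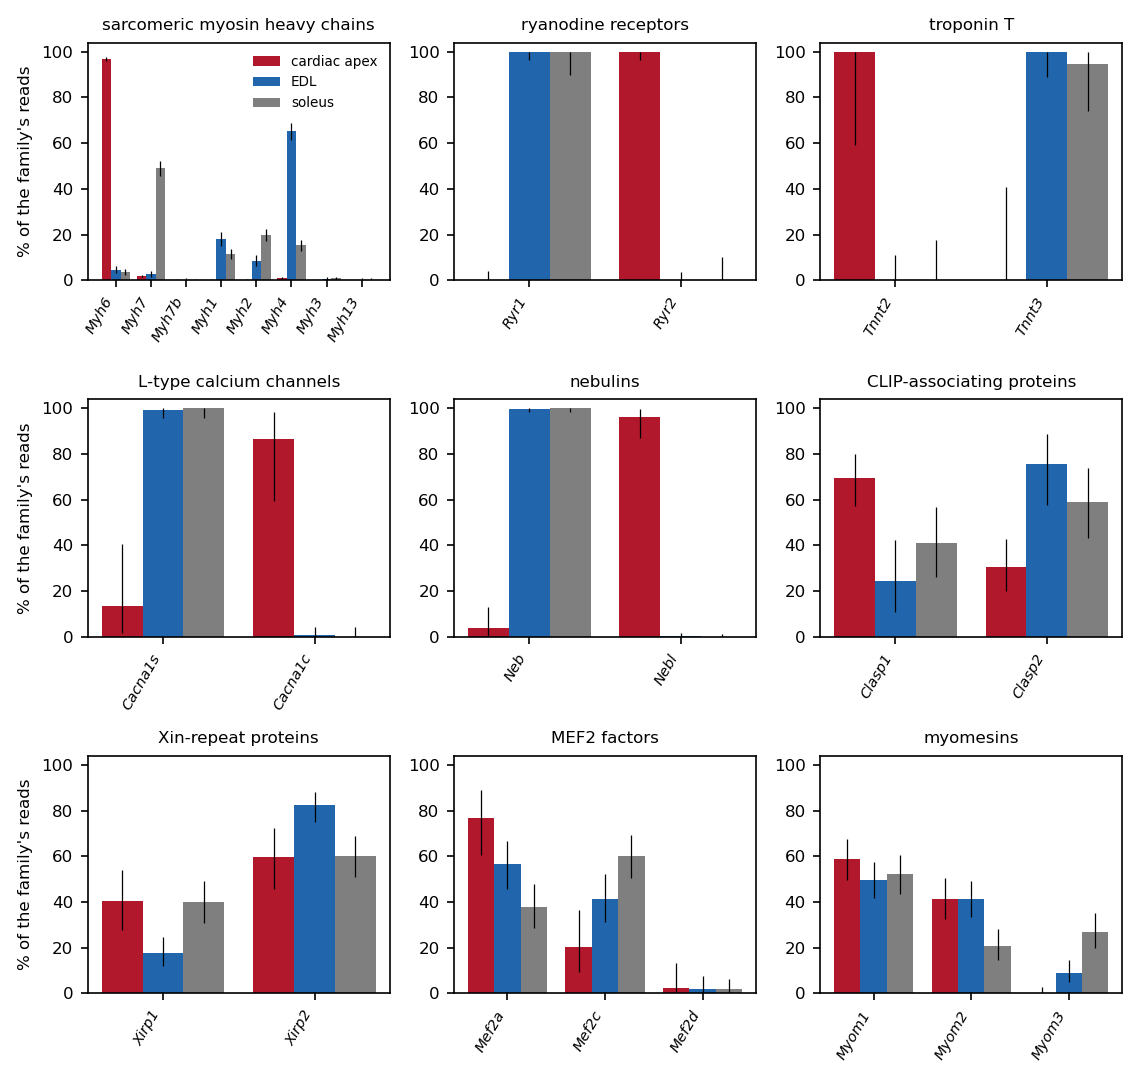
Share of each gene in the consensus reads of its family, in percent, in the cardiac apex, EDL and soleus, with exact 95% intervals. The ryanodine receptor, troponin T, calcium channel and nebulin panels show nearly complete exchange between cardiac apex and EDL, and the soleus bars lie with EDL in these panels. The cardiac shares of troponin T and of the calcium channels rest on 7 and 15 reads. The cardiac and EDL intervals overlap for the MEF2 factors, and do not meet in the Xin-repeat panel or for Myom3.

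The called genes were also counted in lists of genes by role, to be read against 3.2% of all 500 genes higher in the cardiac apex and 5.2% higher in EDL. Of 9 measured genes of cardiac calcium handling and signalling, 5 were higher in the cardiac apex, Pde4d was higher in EDL and 3 were not called, with a median log2 ratio of 2.26. The uncalled 3 were Akap6 and Akap13, anchors of protein kinase A, with 27 and 24 and with 27 and 20 reads, and Prkg1 with 10 and 16. All 6 measured fast skeletal sarcomere genes were higher in EDL, at a median of -5.09. Of 6 measured genes of skeletal excitation-contraction coupling, 4 were higher in EDL, at a median of -3.53. Srl and Cacna2d1 passed in neither direction, with 17 and 30 and with 5 and 19 reads. Of 5 cardiac contractile genes, 2 were higher in the cardiac apex and none in EDL. Fhod3, a formin that assembles cardiac actin filaments, had 47 and 19 reads, a ratio of 2.68 (1.54 to 4.83), and was not called.

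None of the 12 measured genes of the dystrophin complex and costamere was called, which is near the 8.4% of all 500 genes. Their median log2 ratio was 0.14, and -0.13 with a minimum of 10 reads in the pair. Dmd, which encodes dystrophin, had 27 reads in the cardiac apex and 30 in EDL, a ratio of 0.97 (0.56 to 1.70), and Dst had 61 and 80. Sptbn1, beta-II spectrin, had 108 and 47 reads, a ratio of 2.49 (1.75 to 3.58), and Plec, plectin, had 40 and 82, a ratio of 0.53 (0.35 to 0.78). Both intervals excluded 1 but not 2-fold. Of 14 measured genes for giant or very large sarcomere proteins, the cardiac apex was higher for Nebl, EDL was higher for Neb, Xirp2 and Synm, and 10 were not called. Cmya5, a large muscle scaffold, had 84 and 179, a ratio of 0.51 (0.39 to 0.66).

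The lists of metabolism, microtubules and regulation were short, and against a share of 8.4% called over all genes a list without a call says little. Of 4 measured glycogen genes, Phka1 was higher in EDL, and 3 were not called. None of 4 lipid and mitochondrial genes was called. Gpam, which starts triglyceride synthesis, had 112 and 127 reads, a ratio of 0.96 (0.73 to 1.24), and its interval lay wholly within 2-fold. Of 11 microtubule and tubulin genes, Clasp1 was higher in the cardiac apex. Ttll7 and Agbl1, enzymes with opposite actions on tubulin glutamylation, were higher in EDL with 1 and 37 and with 0 and 28 reads. None of 3 splicing regulators was called: Rbm20, a repressor of titin exons, had 43 and 19 reads, a ratio of 2.45 (1.40 to 4.45), and Mbnl1 had 22 and 58, a ratio of 0.41 (0.24 to 0.68). The intercalated disc list had 2 genes higher in the cardiac apex and Xirp2 higher in EDL among 5. The cardiac transcription list had Tbx20 higher in the cardiac apex and Mef2c higher in EDL among 5. Of 2 measured myogenic genes Sox6 was higher in EDL. No call was made among 4 growth signalling genes or 2 of the neuromuscular junction, numbers too small to set against that share.

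Counting error set what could be said of the uncalled genes. For 112 of the 500 genes the interval excluded 1, 46 toward the cardiac apex and 66 toward EDL, so 30 and 40 genes moved past 1 without clearing the 2-fold bar. For the other 388 the interval included 1. For 48 genes the whole interval lay within 2-fold, so that counting error did not reach a 2-fold difference. These 48 included Zfp106, a zinc finger protein of muscle and motor neurons, with 105 and 149 reads and a ratio of 0.76 (0.59 to 0.99). Hk2, the muscle hexokinase, was another, with 62 and 55 reads and a ratio of 1.22 (0.84 to 1.79).

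The soleus library stood nearer EDL than the cardiac apex for 15 of the 16 cardiac genes and for 24 of the 26 EDL genes. Distances were taken on the log scale with 0.5 added. The genes were called on the same cardiac and EDL reads, and the share over all 500 genes was not counted. These counts are therefore a description of the called genes. Of the 16, 9 had no soleus read. The 26 EDL genes held 7.98% of soleus reads and the 16 cardiac genes 0.596%. Transcript length differed little between the sets: the median longest annotated transcript was 7159 nt for cardiac genes, 6437.5 nt for EDL genes and 6507 nt for the 486 of 500 genes matched to the annotation. Tnnt3 and Myl1, with 32 and 25 EDL reads, have annotated transcripts of at most 1079 and 1082 nt, below the selected cDNA range.

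Full-length reads gave larger ratios for many genes. They were counted over the part of each gene with the most of them, for the 40 called genes in the part table. These ratios were scaled by the sum of such counts over the 686 genes with part counts, not by library totals. All 40 kept their side and exceeded 2-fold. Consensus reads merge these same full-length reads, so the 2 ratios of a gene are not independent measurements. Strip2 had 682 full-length reads in the cardiac apex and 5 in EDL, a 140-fold ratio against 7.85-fold by consensus reads. Stat5b had 3 and 680, a 222-fold ratio against 10.2-fold. Slc8a1 had 310 and 10, a 31.7-fold ratio, and Phka1 had 100 and 2178, a 21.3-fold ratio.

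The upstream sequences of the most read myosin heavy chain gene of each library are shown as the start regions of a pair of related genes called in opposite directions. Each is the stretch of 250 bases before the start site, from RefSeq on GRCm38.p6, with TATAAA in capitals where it occurs on either strand. Myh6 lies at chr14:54966608-54966857 on the minus strand and Myh4 at chr11:67237562-67237811 on the plus strand.
Myh6: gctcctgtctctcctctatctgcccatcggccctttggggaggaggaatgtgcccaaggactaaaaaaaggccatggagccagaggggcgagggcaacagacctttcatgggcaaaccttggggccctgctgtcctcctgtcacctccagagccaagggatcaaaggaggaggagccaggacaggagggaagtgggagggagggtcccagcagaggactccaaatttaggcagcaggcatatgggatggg
Myh4: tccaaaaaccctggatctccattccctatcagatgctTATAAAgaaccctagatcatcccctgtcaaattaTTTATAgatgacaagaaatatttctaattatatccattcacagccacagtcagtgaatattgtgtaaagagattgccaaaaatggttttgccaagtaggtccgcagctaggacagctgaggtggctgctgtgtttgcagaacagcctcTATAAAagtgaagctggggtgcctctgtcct
TATAAA occurred in Myh4 at -213, -179 and -31 from the start site and not in these letters in Myh6. The E-box letters CANNTG occurred at -13 in Myh6 and at -221 and -67 in Myh4, and the M-CAT letters CATTCC at -206 in Myh6 and at -231 in Myh4. Both strands were searched and no 2 matches overlapped. Over 27025 genes, 14.3% held TATAAA, 69.3% CANNTG, 14.4% CATTCC and 11.4% the GATA letters AGATAA. Of the called cardiac genes, 10 matched a promoter, and 0, 6, 2 and 3 of them held these motifs in that order. Of the EDL genes, 23 matched, and 5, 17, 6 and 3 held them.

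Exon use was nearly the same in the 2 muscles for most parts. Use is the share of covering reads that hold a part, by full-length reads. Of the 1600 parts, 96.5% differed by under 5 percentage points, 1321 were held by at least 95% of reads in both libraries and 201 by at most 5% in both. A part was called when Fisher's exact test on consensus reads gave a Benjamini-Hochberg adjusted p under 0.05 over all 1976 tested parts, Ttn and Nrap included, and its use by full-length reads differed by 20 points or more. Both kinds of read had to differ in the same direction. By this rule 7 parts (0.438%) were used more in the cardiac apex and 5 (0.312%) more in EDL, 12 (0.75%) in all. With Ttn and Nrap counted, 120 of the 1976 parts (6.07%) passed. Of the 12, 10 lay in Clip1, Cltc, Lmo7, Phka1, Sptbn1, Svil and Ubr3. The test compares 2 libraries, and the adjustment covers their reads alone. Of the 61 tested parts that the authors defined from their reads, beyond the annotation, 5 were called, and of the 1539 annotated parts 7 were. Of the 12 called parts, 7 had a length divisible by 3, against 41.8% of all tested parts. The authors' curated list holds 11 of them, and Lmo7 part 19 stands in their list of artifacts.

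**Figure D4:**
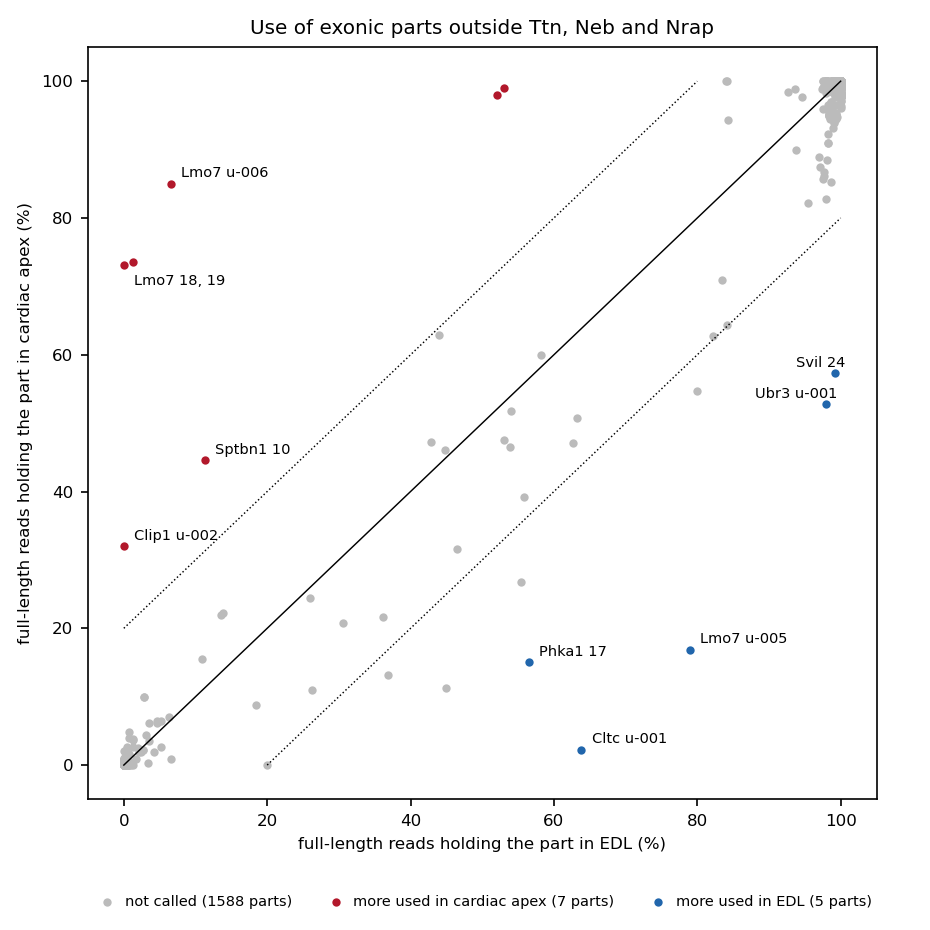
Share of full-length reads that hold each of the 1600 exonic parts, in percent, in the cardiac apex (y axis) and in EDL (x axis). The solid line marks equal use and the dotted lines 20 points of difference. Most parts sit in the corners near 0 and 100, and the 7 red and 5 blue called parts lie far from the diagonal.

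Sequences of annotated exons in Phka1 and Cltc, genes with a called part, are printed from the GENCODE M21 transcripts on GRCm38. The part is in capitals and 15 bases of each neighbouring exon are in lower case. Phka1 exon 19 of 33 lies at chrX:102557096-102557272 on the minus strand. The Cltc exon of 21 bases, at chr11:86701061-86701081 on the minus strand, is exon 4 of 6 of a short transcript. This Cltc exon was not itself called, while Phka1 exon 19 was.
Phka1 exon 19: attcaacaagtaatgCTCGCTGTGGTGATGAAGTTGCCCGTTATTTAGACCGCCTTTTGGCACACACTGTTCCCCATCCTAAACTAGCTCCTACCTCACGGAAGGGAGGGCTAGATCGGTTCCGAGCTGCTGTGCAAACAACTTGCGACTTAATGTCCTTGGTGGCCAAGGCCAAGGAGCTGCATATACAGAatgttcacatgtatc
Cltc exon of 21 bases: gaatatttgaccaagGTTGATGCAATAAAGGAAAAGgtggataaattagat
Both exons have lengths divisible by 3. The next lines give the annotated junctions into which the unannotated parts of Cltc and Ubr3 are inserted, with the last 30 bases of the earlier exon in capitals and the first 30 of the later one in lower case.
Cltc exons 31 and 32: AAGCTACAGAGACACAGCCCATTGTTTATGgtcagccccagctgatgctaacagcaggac
Ubr3 exons 22 and 23: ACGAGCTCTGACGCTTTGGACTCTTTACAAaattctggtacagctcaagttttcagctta

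Outside Ttn, Neb and Nrap, 3 of the 42 genes called for their level had a tested part: Phka1, Myh6 and Xirp2. Of these, Phka1 alone also had a called part, and Xirp2 had 1 tested part. In rabbit muscle, an alpha subunit form that lacks an internal segment, known as alpha prime, is the form of slow and cardiac fibres. Exon 19, coding in 5 of 7 annotated transcripts, was held by 15 of 100 full-length reads in the cardiac apex, 15% (8.65 to 23.5), and by 1229 of 2176 in EDL, 56.5% (54.4 to 58.6). In soleus it was held by 18 of 351, 5.13%, so the soleus value lay with the cardiac one. Taken by full-length reads, Phka1 exon 19 was the single exception among the 12 parts. The soleus value of Clip1 part u-002 also lay nearer the cardiac one when taken by consensus reads. By consensus reads the exon was held by 6 of 30 and 84 of 148 (Fisher's exact test, Benjamini-Hochberg adjusted p = 4.20e-03). The other 22 tested Phka1 parts differed by under 5 points.

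Sptbn1, beta-II spectrin of the membrane skeleton, differed at its 3′ end. Part 10, the last exon of 1 shorter transcript at chr11:30106785-30109088 and partly coding, was held by 86 of 193 full-length reads in the cardiac apex, 44.6% (37.4 to 51.9), by 7 of 62 in EDL, 11.3% (4.66 to 21.9), and by 17.4% in soleus. By consensus reads it was held by 53 of 85 in the cardiac apex, 62.4% (51.2 to 72.6), and by 7 of 35 in EDL, 20% (8.44 to 36.9). The adjusted p was 7.08e-04 by Fisher's exact test (Benjamini-Hochberg). The last long exon of the longer transcripts, looked up after these values were seen and not tested, was reached by 116 of 191 cardiac reads, 60.7% (53.4 to 67.7), and by 56 of 62 EDL reads, 90.3% (80.1 to 96.4). The cardiac apex thus held more consensus reads of the gene, 108 against 47, and a smaller share of its full-length reads reached the longer end. The authors' note on this part says that it can also lie inside a longer exon.

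Lmo7, a scaffold of actin and cell junctions, had 4 called parts, more than any other gene outside Ttn, Neb and Nrap. Parts 18 and 19, at chr14:101884087-101884161, extend exon 8 at its 5′ side and are annotated in retained-intron transcripts alone. Part 18 was held by 161 of 220 full-length reads in the cardiac apex, 73.2% (66.8 to 78.9), by 0 of 76 in EDL and by 0 of 160 in soleus. By consensus reads, which the test used, it was held by 19 of 46 in the cardiac apex, a lower share of 41.3% (27 to 56.8), and by 0 of 36 in EDL. A floor of 3 reads would allow 3.95% of the EDL full-length reads, and the exact upper limit was 4.74%. Upstream exons were reached by fewer cardiac reads: of 224 full-length reads over exon 8, 57 covered the exon before it, 25.4% (19.9 to 31.7), against 76 of 76 in EDL and 160 of 160 in soleus. By consensus reads these were 25 of 48 in the cardiac apex and 36 of 36 in EDL. The authors' note names the extension as a candidate alternative first exon.

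Further along Lmo7, 2 unannotated parts moved in opposite directions. Part u-006, 42 nt between exons 20 and 21 at chr14:101915893-101915934, was held by 193 of 227 full-length reads in the cardiac apex, 85% (79.7 to 89.4), by 5 of 76 in EDL, 6.58% (2.17 to 14.7), and by none of 160 in soleus. Its adjusted p was 3.99e-06. Part u-005, 204 nt between exons 9 and 10 at chr14:101886128-101886331, was held by 38 of 225 in the cardiac apex, 16.9% (12.2 to 22.4), and by 60 of 76 in EDL, 78.9% (68.1 to 87.5), with 74.4% in soleus. Its adjusted p was 2.49e-03, and those of parts 18 and 19 were 4.29e-05 and 3.74e-04, all by Fisher's exact test (Benjamini-Hochberg). Both unannotated lengths are divisible by 3. An annotated part of 81 nt, part 38, was held by 13.2% and 36.8% of full-length reads and was not called, with an adjusted p of 0.913.

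Cltc, the clathrin heavy chain of coated vesicles, gave the largest difference toward EDL after Lmo7 part u-005. Part u-001, 43 nt between exons 31 and 32 at chr11:86696176-86696218, was held by 7 of 309 full-length reads in the cardiac apex, 2.27% (0.916 to 4.61), by 196 of 307 in EDL, 63.8% (58.2 to 69.2), and by 52.7% in soleus. By consensus reads it was 4 of 51 against 31 of 62, with an adjusted p of 2.33e-05 by Fisher's exact test (Benjamini-Hochberg). The 21-base exon upstream of it was held by 171 of 313 cardiac and 268 of 335 EDL full-length reads, 54.6% and 80.0%. It was not called, as its adjusted p was 0.590. The gene was not called for its level, with 54 and 68 reads and a ratio of 0.86 (0.59 to 1.25).

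Of the other 3 genes, Ubr3 and Svil used a part more in EDL and Clip1 used one more in the cardiac apex. Ubr3, a ubiquitin ligase, held the unannotated part u-001, 33 nt between exons 22 and 23 at chr2:69971402-69971434, in 28 of 53 cardiac full-length reads, 52.8% (38.6 to 66.7), in 99 of 101 in EDL, 98.0% (93 to 99.8), and in all 53 in soleus. Svil, supervillin, a large actin- and myosin-binding protein, held exon 9, a coding exon of 165 nt at chr18:5057275-5057439, in 59 of 103 cardiac reads, 57.3% (47.2 to 67.0), in 123 of 124 in EDL, 99.2% (95.6 to 99.98), and in 93.8% in soleus. Clip1, which tracks growing microtubule ends, held the unannotated part u-002, 195 nt between exons 1 and 2 at chr5:123661506-123661700, in 32 of 100 cardiac reads, 32.0% (23 to 42.1), and in 0 of 141 in EDL, where a floor of 3 reads allows 2.13% and the exact upper limit was 2.58%. In soleus it was held by 12.9% of full-length reads. It was held by 21 of 89 soleus consensus reads, 23.6%, nearer the cardiac 33.3% than the 0% of EDL. The authors' note places it as an alternative first segment of the 5′ UTR. The adjusted p was 2.27e-04 for Ubr3, 7.05e-07 for Svil and 2.30e-05 for Clip1, by Fisher's exact test (Benjamini-Hochberg). None of the 3 genes was called for its level, with 34 and 43, 81 and 69, and 46 and 65 consensus reads.

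**Figure D5:**
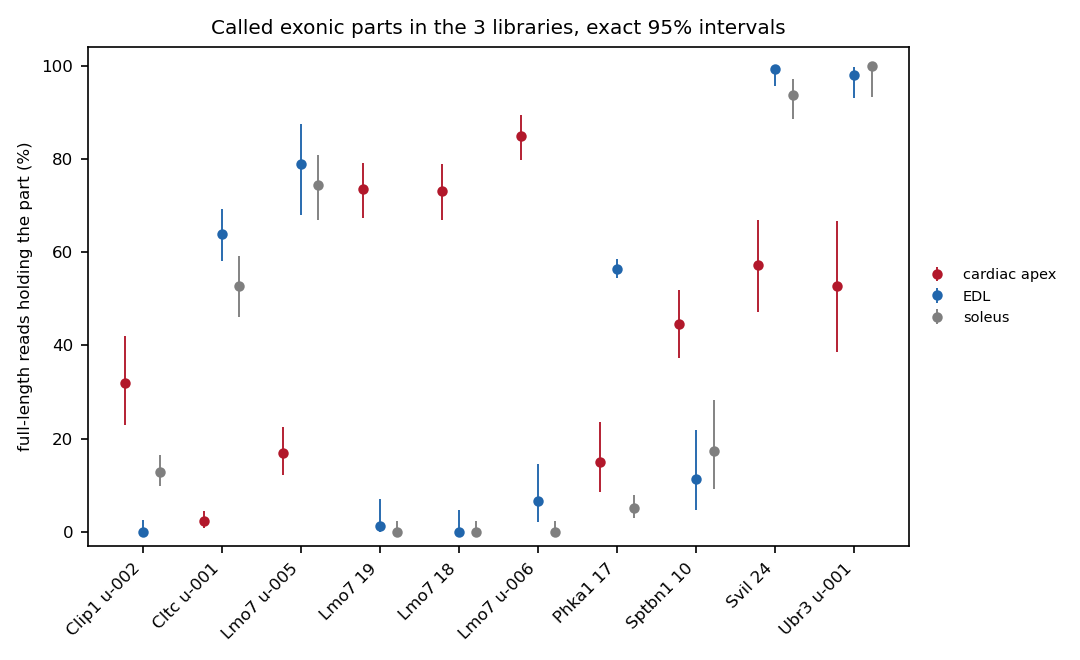
Share of full-length reads holding 10 of the 12 called parts, in percent, in the cardiac apex, EDL and soleus, with exact 95% intervals. The intervals take each full-length read as independent and can be too narrow. The soleus point lies nearer the EDL point for 9 of these parts and nearer the cardiac point for Phka1 part 17, which is exon 19.

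Parts near the thresholds are given for comparison. By full-length reads 4 uncalled parts differed by 20 points or more, among them Gpam part 21 (11.2% and 44.96%) and the Cltc and Lmo7 parts above. For Gpam part 21 the consensus reads, 19 of 76 and 18 of 95, leaned the other way. Nedd4, a ubiquitin ligase, held an unannotated stretch of 6724 nt, part u-001. It was held by 0 of 41 cardiac and 42 of 80 EDL consensus reads, and its difference by full-length reads, 0% against 19.99%, fell just short of 20 points. The part was covered by more EDL consensus reads, 80, than the 39 counted for the gene.

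Genes with many tested parts and no call were led by Trip12 with 68 parts, AI314180 with 67, Col4a1 with 66, Myo18a with 64 and Pde4dip with 61. The largest difference of any part was 10.1 points in Trip12, a ubiquitin ligase, 7.32 in AI314180 and 0.451 in Col4a1, a basement membrane collagen. It was 13.1 points in Myo18a, an unconventional myosin, and 19.5 in Pde4dip, an anchor at the centrosome and Golgi. Of the 54 genes, 46 had no called part. Myh6, the largest gene by reads and called 74.4-fold higher in the cardiac apex, had 36 tested parts that differed by at most 1.09 points.

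Parts covered by 10 to 29 consensus reads in a library were outside the test. Outside Ttn, Neb and Nrap, 14 of them differed by 50 points or more by both kinds of read. They were chosen for that difference after the values were seen, and their values are a description. With a minimum of 20 covering reads in place of 30, 9 of them were called: Abcc9 part 25, Mast2 part 47, Phldb1 part 22, Clasp2 part u-009 and the 5 of Limch1. Their sequences, from the same transcripts and on the minus strand, are printed for 3 short coding exons. Abcc9 exon 18 lies at chr6:142648027-142648065, Mast2 exon 7 at chr4:116333413-116333433 and Phldb1 exon 12 at chr9:44701503-44701670.
Abcc9 exon 18: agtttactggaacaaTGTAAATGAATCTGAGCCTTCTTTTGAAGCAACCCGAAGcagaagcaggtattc
Mast2 exon 7: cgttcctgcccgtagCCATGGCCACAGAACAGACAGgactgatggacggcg
Phldb1 exon 12: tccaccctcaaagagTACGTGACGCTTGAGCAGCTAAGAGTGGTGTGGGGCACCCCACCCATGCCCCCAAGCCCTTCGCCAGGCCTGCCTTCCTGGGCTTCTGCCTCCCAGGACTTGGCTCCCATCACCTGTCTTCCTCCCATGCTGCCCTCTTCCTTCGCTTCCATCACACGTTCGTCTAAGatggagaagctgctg
Abcc9, the sulfonylurea receptor of the cardiac and vascular potassium channel, held its 39-base exon in 30 of 30 cardiac full-length reads and in 23 of 72 in EDL, 31.9%, with 99 of 101 in soleus. Mast2, a microtubule-associated kinase, held its 21-base exon in 0 of 132 and in 115 of 157, 73.2%, with 77 of 262 in soleus. Phldb1, a protein of the cell cortex, held its 168-base exon in 80 of 107, 74.8%, and in 2 of 35, 5.71%, with 13 of 38 in soleus. Lengths of all 3 exons are divisible by 3. Ppp1r12b, a subunit of myosin phosphatase, held part 9, of 135 nt, in 1 of 42 and in 44 of 48 reads. Its part 8, of 46 nt and on the authors' artifact list, had the same numbers. Limch1, an activator of non-muscle myosin, held a run of 5 unannotated parts in at most 1 cardiac read and in 86.0% to 88.0% of EDL reads, and the last of them is on the authors' artifact list. Clasp2, Kif13a and Mpdz held the rest: Clasp2 part u-009 was at 8.75% and 82.6%, and Mpdz part 40 at 30.8% and 97.3%. Kif13a parts u-023 and u-026 were at 3.45% and 84.2% and at 0% and 88.9%, on 29 cardiac reads and on 19 and 18 EDL reads.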

How the data were processed

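Per the labels' protocols, total RNA was extracted with the mirVana kit and cDNA was made with the SMARTer kit and size-selected at 5 to 10 kb. The submitters' processing notes name STAR 2.5.0am and the builds mm10 and GRCm38. The authors' deposited protocol states that htseq-count assigned consensus reads to gene names and that the tool exCOVator gave counts of consensus and full-length reads covering and holding each exonic part of 686 genes. The authors deposited these values as raw counts. The other deposited values used were memberships of the authors' lists of curated parts and artifacts. Positions were shifted to count from 1. Reads in no single gene, 9.78% in the cardiac apex and 8.92% in EDL, stayed out of totals, among them 97 and 69 reads with several alignments. 0 columns of values had no sample. A few symbols in the deposited tables had been turned into dates and stand as found.

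Ratios were scaled by library totals, with exact conditional binomial 95% intervals, and parts were tested with Fisher's exact test and Benjamini-Hochberg adjustment (Python 3.11.15, scipy 1.17.1). The code was tested on simulated data. TMM factors came from edgeR 4.0.16 (R 4.3.3). The alternatives tried were other scalings, read minimums, fold bars, interval levels and part rules. Every called gene could be named, with the 2 most read members of each list, the 8 most read genes, every gene with a called part and the 5 genes with most tested parts and none called. Other uncalled genes, the families, the transcript ends and the thinly covered parts were chosen after their values were seen. Members and lists were chosen with earlier results of these data known. Results for a few genes are not reported here.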

Additional observations from a re-analysis of the deposited data

How the results depend on the processing

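The gene calls followed the read minimum and the bar. With 10 or more reads in the pair, 65 genes were called, 27 higher in the cardiac apex and 38 in EDL. With no minimum there were 68, 30 and 38. With 50 or more reads there were 20, 7 and 13. With an interval beyond 1 there were 112, 46 and 66, and with one beyond 4-fold 24, 11 and 13. For parts, 20 covering consensus reads gave 26 calls, 13 in each direction, and 50 gave 2, with 0 more used in the cardiac apex and 2 in EDL. The same Fisher test run with full-length reads, which are not independent within a consensus read, gave 15 calls, 8 of them more used in EDL. The numbers of genes or parts tested differ between these minimums by construction. Under TMM, median-of-ratios, a 99% interval and totals without the 10 most read genes, the counts stayed within 1.5 times, as they did without Myh6 in the totals, a setting chosen after seeing the data. No called gene or part changed direction under the settings tried, but most of these settings could not reverse a call. Read minimums, bars and interval levels leave a ratio as it is, and the scalings moved log2 ratios by at most 0.17. The part rule already required both kinds of read to differ in the same direction. The median of the dystrophin and costamere list, 0.14, became -0.13 with 10 or more reads in the pair, where more genes enter. Leaving Myh6 out moved the median log2 ratio by 0.17, and median of ratios moved it by -0.12. Of the 40 genes with full-length counts, 27 ratios stayed within the interval of the ratio by consensus reads and 13 did not.

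No paired analysis was possible because each muscle had 1 library and the labels give no replicate numbers. Leaving out a replicate was likewise not possible, so differences between the muscles cannot be told apart from differences between the animals or preparations. Size selection thins short transcripts, and 1 read was 54.6 RPM in the cardiac apex and 50.4 in EDL, so genes with few reads could not be compared. Intervals cover counting error only.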
